A study of Mus musculus with 20 samples.

Results

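The genes described here are the axon guidance ligands and receptors, chosen by gene symbol as the semaphorins 3 to 7, plexins, neuropilins, ephrins, Eph receptors, netrins, Dcc, Unc5, Slit and Robo genes. There are 69 of them among 34620 gene symbols, 35 ligands and 34 receptors. They comprise 20 semaphorins, 11 plexins and neuropilins, 8 ephrins, 14 Eph receptors, 9 genes of the netrin, Dcc and Unc5 group and 7 Slit and Robo genes. All 69 passed the filter on low counts and were tested. The rule reads symbols and no measured value.

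Guidance ligands are secreted or carried on cell surfaces, and receptors on the growth cone read them as attraction or repulsion. Semaphorins signal through plexins, with neuropilins as partners for most secreted forms, netrins through Dcc and Unc5, and Slits through Robo receptors. Ephrins and Eph receptors are both bound to membranes and signal in both directions between touching cells. In the forebrain these families steer corticofugal, striatal and hippocampal axons, place migrating neurons and later act at synapses.

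Gene expression was measured by RNA sequencing in 6 of 20 mouse brain samples, and the other 14 samples, of bisulfite-treated DNA, were not analysed here. The tissue was microdissected from frozen sections of C57BL/6 wild type mice labelled male, and the labels give no age. Dorsal medium spiny neurons (dMSN) had 2 libraries, and 1 library each was made of young medium spiny neurons (yMSN, where the labels have medial for medium), young hippocampal CA pyramidal neurons (yCA), striatal precursors (SP) and hippocampal precursors (HP). The young and precursor groups have no replicates, nothing in the labels says that the dMSN libraries came from separate animals, and microdissected tissue holds every cell type of the piece cut out.

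Depth ranged from 31282185 gene counts in HP to 152347673 in dMSN 1, and the lowest count of any of the 69 genes in any library was 7, for Plxnb3 in HP. Levels are given as CPM, counts scaled to a common library size with TMM factors. The median of 12 medium spiny neuron markers was 201 CPM in dMSN 1 and 215 CPM in dMSN 2, but only 20.4 CPM for yMSN and 24.9 CPM for yCA, so they did not set the young striatal library above the young hippocampal one. The dMSN libraries also held Slc17a7, a glutamate transporter of cortical and hippocampal neurons, at 936 and 1487 CPM, and a list of 8 oligodendrocyte genes at medians of 547 and 443 CPM, against 21.3 CPM in yMSN. Among 15 skeletal muscle genes the summed level was 2909 CPM in yMSN and 8035 CPM in yCA, against 20.6 CPM in SP and 24.4 CPM in HP, with none at 0 in these libraries. For 12 genes of bone and cartilage the median was 34.9 CPM in yMSN, 1.76 CPM in yCA, 1.11 CPM in SP and 0.861 CPM in HP. Summed, these genes reached 922 CPM in yMSN, but HP (681 CPM) and SP (570 CPM) lay far above yCA (57.7 CPM). Col2a1 had the values 546 CPM for HP, 451 CPM for SP, 320 CPM for yMSN and 40.3 CPM for yCA, so it was not particular to yMSN. Col9a1 and Hapln1 were also well above yCA in HP and SP. The other genes of the list were highest in yMSN among the 4 young and precursor libraries. Acan was 41.0 CPM in yMSN, 2.21 CPM in yCA, 1.33 CPM in SP and 0.345 CPM in HP. Ibsp was 322 CPM in yMSN, 1.98 CPM in yCA, 0.378 CPM in SP and 0.517 CPM in HP. Xist, which is expressed from the inactive X chromosome of female cells, was high in all 4 young and precursor libraries, at 489 to 1088 CPM, which goes against the label male. In yCA and SP 3 Y-linked genes had no counts. The same 3 had 672 counts in HP and 2108 in yMSN, where Xist was at 857 and 489 CPM. The dMSN libraries had 8258 and 9348 Y-linked counts, with Xist at 0.0333 and 0 CPM. The groups compared thus differ in sex-linked transcripts. Plxna3, Plxnb3 and Efnb1 are X-linked. The part of any of these transcripts in the results below was not tested.

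The promoters of 59 of the 69 genes were matched by symbol in RefSeq (GRCm38.p6), in 75 windows of 250 bases before to 50 bases after a transcript start. The windows of 4, chosen after their values were seen, are shown as examples of genes that went the same way at both striatal steps described below, with every CG pair in capitals, the site at which vertebrate DNA is methylated. Unc5a (chr13:54949161-54949460, plus strand), Sema7a (chr9:57939862-57940161, plus strand) and Plxnb3 (chrX:73756853-73757152, plus strand) were higher at each later striatal stage, and Slit2 (chr5:47982905-47983204, plus strand) was lower at each.
Unc5a: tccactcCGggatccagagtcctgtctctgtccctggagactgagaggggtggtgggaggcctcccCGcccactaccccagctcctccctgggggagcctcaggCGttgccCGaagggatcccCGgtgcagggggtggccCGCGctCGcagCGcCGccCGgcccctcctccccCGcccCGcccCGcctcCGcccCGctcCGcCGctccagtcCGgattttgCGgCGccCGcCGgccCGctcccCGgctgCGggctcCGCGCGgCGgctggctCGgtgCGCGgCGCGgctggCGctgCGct
Sema7a: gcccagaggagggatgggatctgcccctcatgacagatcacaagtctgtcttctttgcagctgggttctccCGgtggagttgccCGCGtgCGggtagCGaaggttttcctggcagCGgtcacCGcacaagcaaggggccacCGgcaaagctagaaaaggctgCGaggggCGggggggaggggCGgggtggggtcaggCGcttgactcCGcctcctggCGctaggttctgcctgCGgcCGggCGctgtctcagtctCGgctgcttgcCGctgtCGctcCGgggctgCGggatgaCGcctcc
Plxnb3: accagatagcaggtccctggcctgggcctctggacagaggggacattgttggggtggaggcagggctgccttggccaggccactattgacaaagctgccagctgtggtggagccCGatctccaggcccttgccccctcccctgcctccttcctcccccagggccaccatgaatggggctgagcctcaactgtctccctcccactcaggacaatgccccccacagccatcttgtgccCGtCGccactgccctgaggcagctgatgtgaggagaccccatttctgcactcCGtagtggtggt
Slit2: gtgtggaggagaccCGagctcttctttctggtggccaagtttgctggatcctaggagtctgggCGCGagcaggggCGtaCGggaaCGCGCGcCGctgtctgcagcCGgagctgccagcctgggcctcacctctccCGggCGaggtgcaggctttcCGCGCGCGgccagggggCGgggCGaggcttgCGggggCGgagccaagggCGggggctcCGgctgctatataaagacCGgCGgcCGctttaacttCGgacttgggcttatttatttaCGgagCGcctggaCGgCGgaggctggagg
The windows hold 37 CG sites for Unc5a, 23 for Sema7a, 4 for Plxnb3 and 30 for Slit2. Over the 75 windows the median was 19 CG sites, against 7 over all 32851 RefSeq promoter windows. The 14 windows of the 9 genes that went up at least 2-fold at both striatal steps, several of them windows of Sema4a, had a median of 10.5. Windows of genes that went up and then down, also 14, had a median of 20. The 3 windows of genes that went down at both had a median of 24. A GC box (GGGCGG, either strand, holding a CG pair itself) was found in 70.7% of the 75 windows and 35.7% of all windows, and a TATA box (TATAAA, either strand, no overlap with the GC box) in 2.67% and 13.6%. These matches describe letters in a window and not a bound site.

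The young stage was compared with the precursor stage in both lineages together, and dMSN with yMSN. In young tissue 28 of the 69 genes rose, 10 fell and 31 did not pass (edgeR's quasi-likelihood test, Benjamini-Hochberg adjusted p below 0.05), where 21.7% of 19192 genes rose and 13.7% fell. That is 38 of 69 called, where 35.4% of all genes were called. In dMSN 13 rose relative to yMSN, 44 fell and 12 did not pass, where 32.1% of all genes rose and 35.4% fell. Here 57 of the 69 were called, where 67.5% of all genes were. The median log2 change of the 69 genes was 0.42 in young tissue, against 0.10 over all genes tested, and -1.39 in dMSN, against -0.11 over all genes. A fall in bulk tissue may be fewer cells of a type or less RNA per cell, and these cannot be told apart.

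Summed over the 34 receptor genes the level was 2925 CPM in SP, 2582 CPM in HP, 3392 CPM in yMSN, 4395 CPM in yCA, and 1300.3 and 1358 CPM in the dMSN libraries. The receptor sum was thus highest in the young libraries and lowest in dMSN. Summed over the 35 ligand genes the level was 1684 CPM in SP, 1429 CPM in HP, 1813 CPM in yMSN, 1908 CPM in yCA, and 1233 and 1188 CPM in the dMSN libraries. The ligand sum had the same order of stages over a narrower range. Together the 69 genes took 0.510% of gene counts in SP, 0.447% in HP, 0.611% in yMSN, 0.692% in yCA and 0.200% and 0.202% in the dMSN libraries. Neural progenitor markers were at a median of 22.98 and 18.9 CPM in the dMSN libraries, against 159 CPM in yMSN. Marker sums of several other tissues were also lower there, while those of others were higher. Meningeal and fibroblast genes summed to 109.8 and 108 CPM in the dMSN libraries, against 13722 CPM in yMSN. Skeletal muscle genes summed to 104 and 103 CPM in dMSN, against 2909 CPM in yMSN, and bone and cartilage genes to 47.0 and 50.1 CPM in dMSN, against 922 CPM in yMSN. In the other direction choroid plexus genes summed to 5565 and 4396 CPM in the dMSN libraries, against 247 CPM in yMSN. Nearly all of the dMSN sum was Ttr, at 5463 and 4293 CPM, against 105 CPM in yMSN. The median of this list was lower in dMSN, at 30.5 and 30.8 CPM, against 63.7 CPM in yMSN. Of its 5 genes 3 rose in dMSN and 2 fell. Oligodendrocyte genes summed to 8819 and 7478 CPM in dMSN, against 142 CPM in yMSN. Astrocyte genes summed to 3606 and 3506 CPM in dMSN, against 552 CPM in yMSN, and microglia genes to 654 and 585 CPM, against 103 CPM. The part of all these lists in the sums of the 69 genes was not tested.

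**Figure D1:**
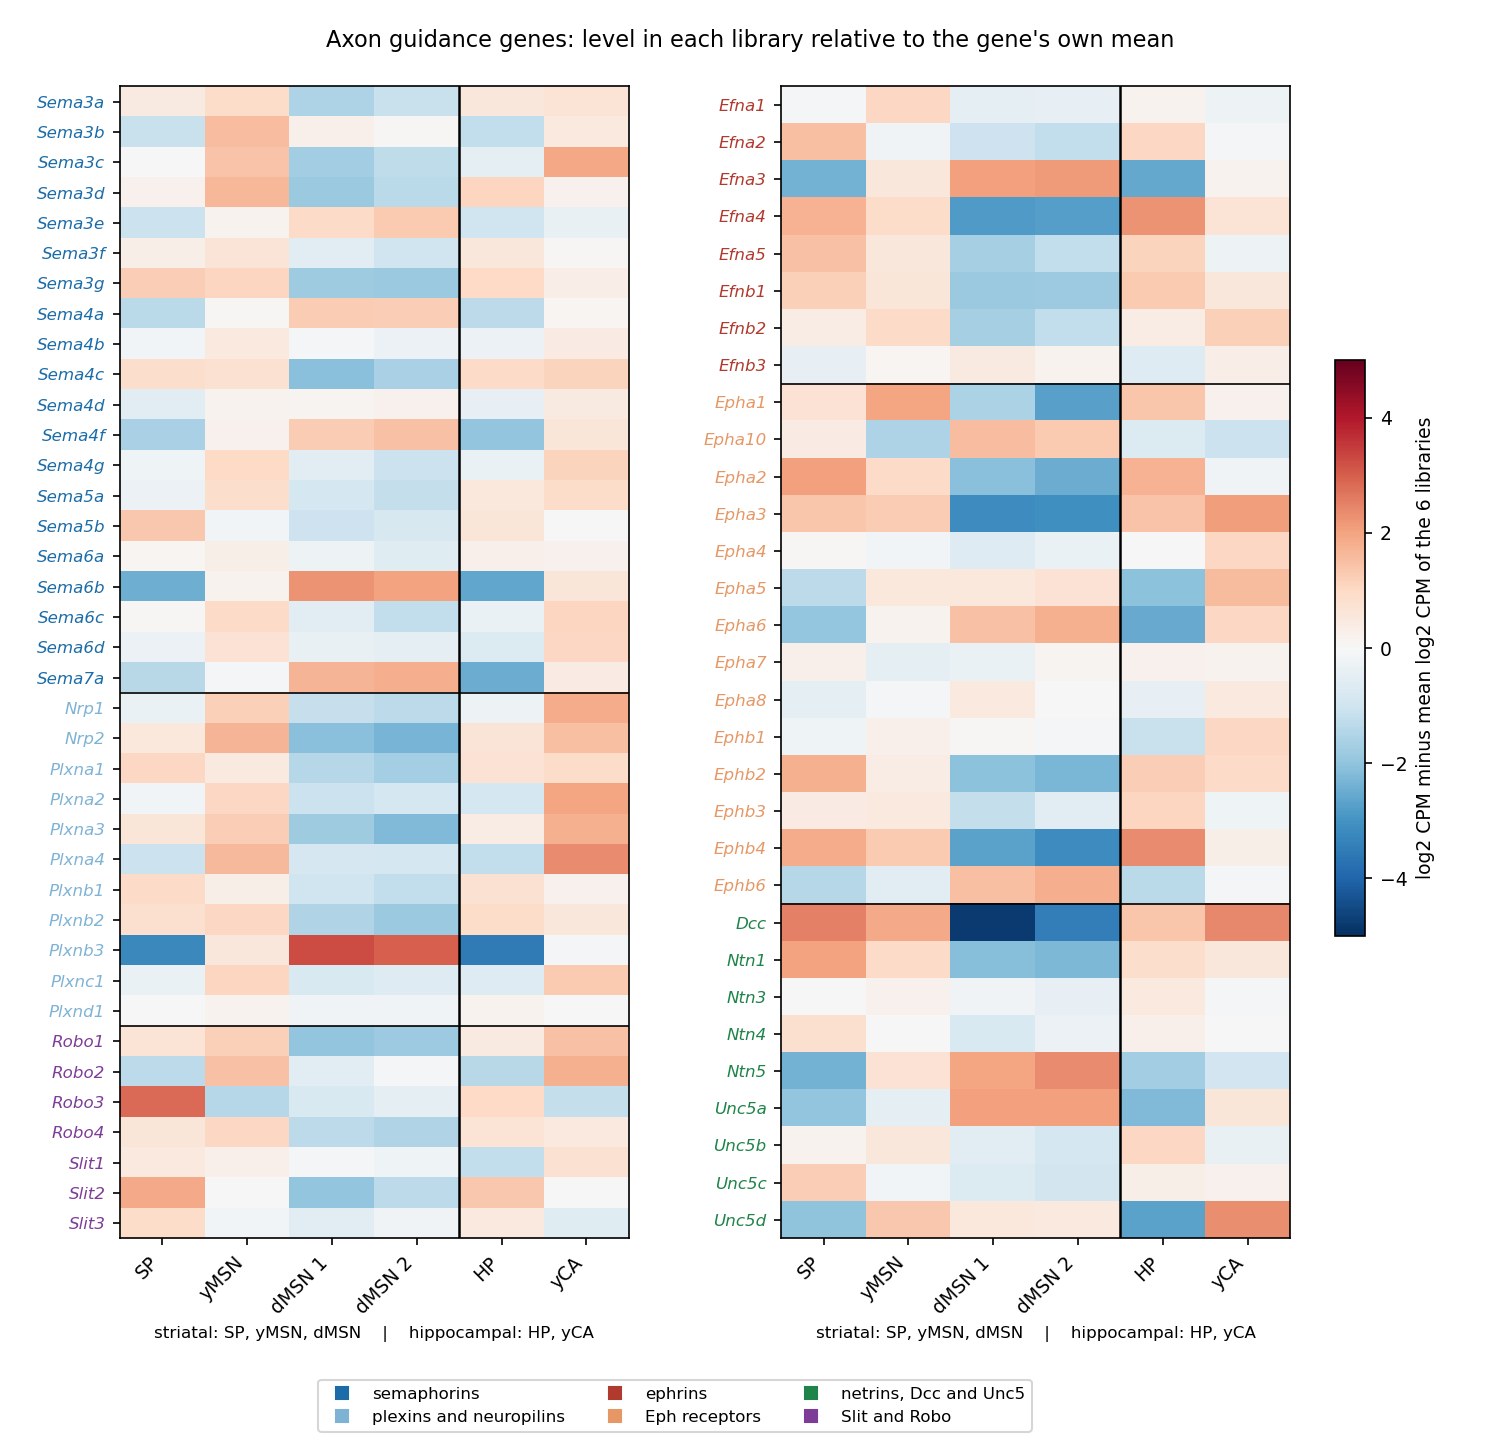
Level of each of the 69 genes (rows, by family) in each of the 6 libraries (columns), as log2 CPM minus the gene's own mean over the libraries. Nrp1, Nrp2, Plxna2, Plxna3, Plxna4 and Plxnc1 are highest in yMSN and yCA, and most rows are lowest in dMSN 1 and dMSN 2, while Unc5a, Sema6b, Sema7a, Efna3 and Plxnb3 are highest there.

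Semaphorins are the largest of the families, and in young tissue 11 of 20 rose and 1 fell. The membrane-bound classes 4 to 7 accounted for 9 of the 11 among 13 genes, and the secreted class 3 for 2 among 7. In dMSN 5 of 20 rose and 14 fell relative to yMSN. Of the 7 secreted genes 6 fell and Sema3e rose, and of the 13 membrane-bound genes 4 rose and 8 fell. The share called was 60% of the family in young tissue and 95% in dMSN, against 35.4% and 67.5% of all genes. For the secreted class it was 28.6% and 100%, and for the membrane-bound classes 76.9% and 92.3%.

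Sema6b, a transmembrane semaphorin that signals through A-type plexins, stood at 6.87 CPM in SP, 6.23 CPM in HP, 42.4 CPM in yMSN, 57.7 CPM in yCA, and 178 and 152 CPM in the dMSN libraries. It was low in both precursor libraries, higher in both young ones and highest in dMSN. It rose by 2.92 on the log2 scale in young tissue (SE 0.214, adjusted p = 0.0018) and by 1.96 in dMSN (SE 0.224, adjusted p = 8.2e-06). Sema7a, a lipid-anchored semaphorin that promotes axon growth through integrins and also binds plexin C1, stood at 17.8 CPM in SP, 8.33 CPM in HP, 43.3 CPM in yMSN, 62.01 CPM in yCA, and 149 and 164 CPM in the dMSN libraries. It rose by 2.08 in young tissue (SE 0.3999, adjusted p = 0.015) and by 1.85 in dMSN (SE 0.217, adjusted p = 1e-05), with no overlap between the stages. The young change of Sema7a did not pass when either dMSN library was left out, at a log2 change of 2.082 in each case. It was 1.18 without yCA and 2.898 without yMSN. Sema4f, a transmembrane class 4 member, stood at 6.797 CPM in SP, 5.31 CPM in HP, 24.4 CPM in yMSN, 31.3 CPM in yCA, and 50.4 and 57.7 CPM in the dMSN libraries. Its rise by 2.197 in young tissue (SE 0.242, adjusted p = 0.0036) was followed by one of 1.15 in dMSN (SE 0.232, adjusted p = 0.00081). Sema4a had the same order of stages, and rose by 1.38 in young tissue (SE 0.161, adjusted p = 0.004) and by 1.196 in dMSN (SE 0.226, adjusted p = 5e-04).

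Sema3c, a secreted semaphorin that can attract cortical axons, stood at 24.4 CPM in SP, 17.7 CPM in HP, 65.02 CPM in yMSN, 92.2 CPM in yCA, and 7.24 and 10.1 CPM in the dMSN libraries. It rose by 1.896 in young tissue (SE 0.306, adjusted p = 0.0091), with 1.31 when yCA was left out, and fell by 2.91 in dMSN (SE 0.231, adjusted p = 3.6e-07), to below both precursor libraries. Sema3b was 3.902 CPM in SP, 3.53 CPM in HP, 24.6 CPM in yMSN, 11.8 CPM in yCA, and 10.1 and 8.75 CPM in the dMSN libraries. It rose by 2.199 in young tissue (SE 0.322, adjusted p = 0.0071), with the higher value in yMSN, and fell by 1.39 in dMSN (SE 0.261, adjusted p = 0.00048). Sema3a, the founding repellent of the class, was 43.4 CPM in SP, 46.9 CPM in HP, 59.7 CPM in yMSN, 50.5 CPM in yCA, and 10.97 and 14.8 CPM in the dMSN libraries. Precursor and young libraries lay close together (log2 change 0.28, adjusted p = 0.34), and both dMSN libraries lay below all 4 of them, where it fell by 2.21 (SE 0.224, adjusted p = 2.9e-06). Sema3d was 8.06 CPM in SP, 14.7 CPM in HP, 21.9 CPM in yMSN, 7.94 CPM in yCA, and 1.93 and 2.71 CPM in the dMSN libraries. In young tissue it did not pass (0.28, adjusted p = 0.75); only yMSN lay above both precursor libraries. In dMSN it fell by 3.24 (SE 0.2904, adjusted p = 1e-06). Sema3g, known from arterial endothelium, was 11.3 CPM in SP, 9.65 CPM in HP, 10.3 CPM in yMSN, 6.04 CPM in yCA, and 1.42 and 1.34 CPM in the dMSN libraries, and fell by 2.904 in dMSN (SE 0.288, adjusted p = 2.4e-06). The list of 12 endothelial and mural genes had medians of 6.42 and 6.31 CPM in the dMSN libraries, against 41.7 CPM in yMSN, and its part in that fall was not tested. Sema4c, a membrane-bound ligand of plexin B2, was 85.1 CPM in SP, 89.2 CPM in HP, 78.6 CPM in yMSN, 100.2 CPM in yCA, and 10.97 and 15.001 CPM in the dMSN libraries. Its precursor and young libraries overlapped, and it fell by 2.597 in dMSN (SE 0.219, adjusted p = 6e-07).

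**Figure D2:**
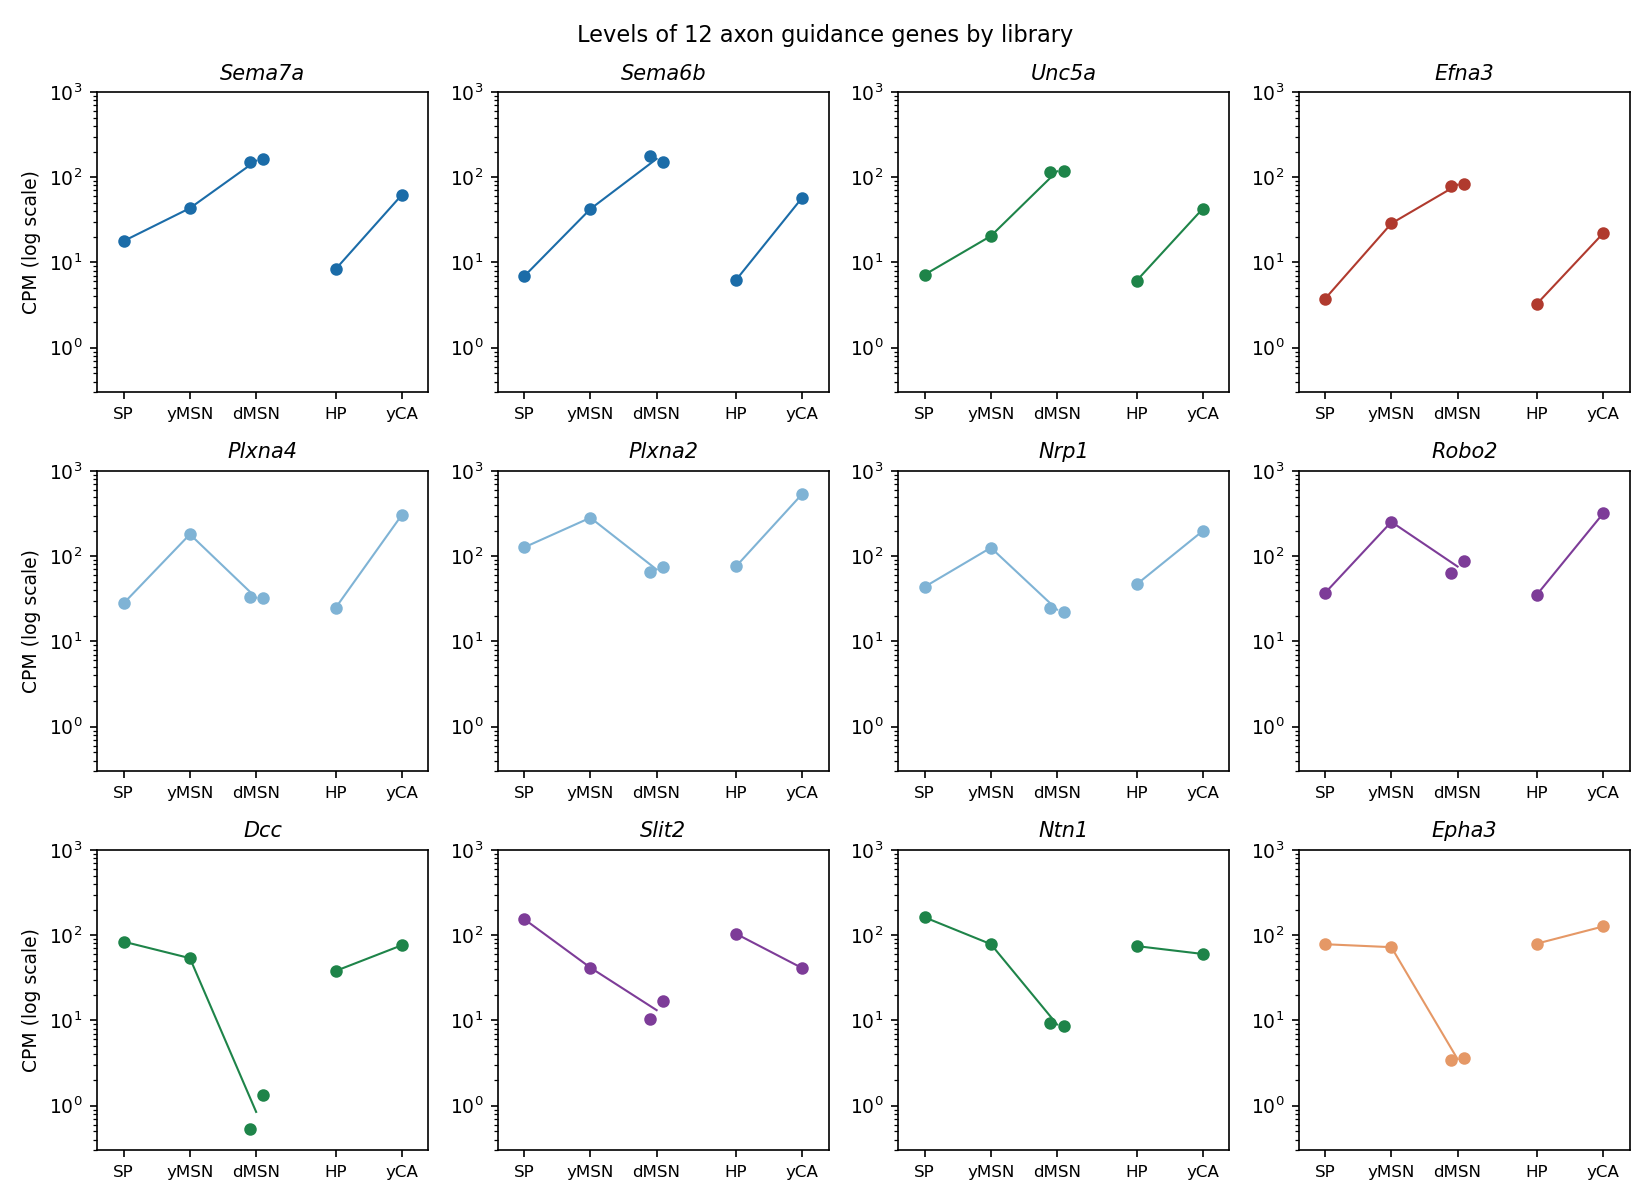
Level (CPM, log scale) of 12 genes, 1 panel a gene coloured by family, with 1 point a library and a line through each lineage, striatal (SP, yMSN, dMSN) on the left and hippocampal (HP, yCA) on the right of each panel; at dMSN the line ends at the geometric mean of the 2 libraries. In the top row Sema7a, Sema6b, Unc5a and Efna3 climb at each stage, in the middle row Plxna4, Plxna2, Nrp1 and Robo2 peak in yMSN along the striatal line and are higher still in yCA, and in the bottom row Dcc, Slit2, Ntn1 and Epha3 are lowest in dMSN.

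Plexins are the transmembrane receptors of semaphorins and neuropilins their ligand-binding partners. In young tissue 7 of 11 rose, 1 fell and 3 did not pass, and in dMSN 9 fell, 1 rose and 1 did not pass. That is 72.7% of the family called in young tissue and 90.9% in dMSN, against 35.4% and 67.5% of all genes. Plxna4 was 28.05 CPM in SP, 24.8 CPM in HP, 181 CPM in yMSN, 305 CPM in yCA, and 33.1 and 32.1 CPM in the dMSN libraries. It was far higher in both young libraries than in any other. It rose by 3.15 in young tissue (SE 0.266, adjusted p = 0.0022) and fell by 2.47 in dMSN (SE 0.188, adjusted p = 2.5e-07). Plxna2, a receptor of Sema6a and Sema6b, was 127 CPM in SP, 76.01 CPM in HP, 283 CPM in yMSN, 539 CPM in yCA, and 65.2 and 74.6 CPM in the dMSN libraries. It was highest in yCA and then yMSN, and rose by 1.99 in young tissue (SE 0.4196, adjusted p = 0.019). In dMSN it fell by 2.02 (SE 0.199, adjusted p = 2.3e-06), and when either dMSN library was left out the young change of 1.99 did not pass. It was 1.05 without yCA and 2.83 without yMSN. Nrp1, the binding partner for Sema3a, was 43.7 CPM in SP, 46.6 CPM in HP, 126 CPM in yMSN, 198 CPM in yCA, and 24.99 and 22.2 CPM in the dMSN libraries. Nrp1 rose by 1.81 in young tissue (SE 0.195, adjusted p = 0.0035), and in dMSN it fell by 2.41 (SE 0.192, adjusted p = 3.6e-07). Plxnc1, the plexin that binds Sema7a, was 35.5 CPM in SP, 28.3 CPM in HP, 92.7 CPM in yMSN, 111 CPM in yCA, and 26.3 and 28.1 CPM in the dMSN libraries. Its young libraries were the highest and its dMSN libraries the lowest, with log2 changes of 1.68 in young tissue (SE 0.195, adjusted p = 0.004) and -1.77 in dMSN (SE 0.193, adjusted p = 5.3e-06).

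Nrp2, the partner for Sema3f, was 99.995 CPM in SP, 109 CPM in HP, 226 CPM in yMSN, 197 CPM in yCA, and 16.3 and 13.9 CPM in the dMSN libraries. It rose by 1.01 in young tissue (SE 0.1699, adjusted p = 0.01) and fell by 3.902 in dMSN (SE 0.201, adjusted p = 1.1e-08), to far below every other library. Plxna3 was 101 CPM in SP, 84.1 CPM in HP, 152 CPM in yMSN, 224 CPM in yCA, and 19.1 and 14.2 CPM in the dMSN libraries, and followed the same course with log2 changes of 1.004 in young tissue (SE 0.263, adjusted p = 0.036) and -3.19 in dMSN (SE 0.215, adjusted p = 9.6e-08). Plxnb2, a plexin of progenitors and many other cells, was 339 CPM in SP, 372 CPM in HP, 397 CPM in yMSN, 291 CPM in yCA, and 69.1 and 54.4 CPM in the dMSN libraries. Young and precursor libraries overlapped, and Plxnb2 fell by 2.68 in dMSN (SE 0.214, adjusted p = 3.8e-07). Plxnb3 went the other way at the last step. It was 0.252 CPM in SP, 0.201 CPM in HP, 3.43 CPM in yMSN, 2.19 CPM in yCA, and 22.4 and 18.4 CPM in the dMSN libraries. It rose by 3.61 in young tissue (SE 0.334, adjusted p = 0.0026) and by 2.57 in dMSN (SE 0.335, adjusted p = 2.4e-05). Plxnb3 is known from oligodendrocytes, and all 8 oligodendrocyte genes rose in dMSN with a median log2 change of 5.94; their part in the Plxnb3 value was not tested.

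**Figure D3:**
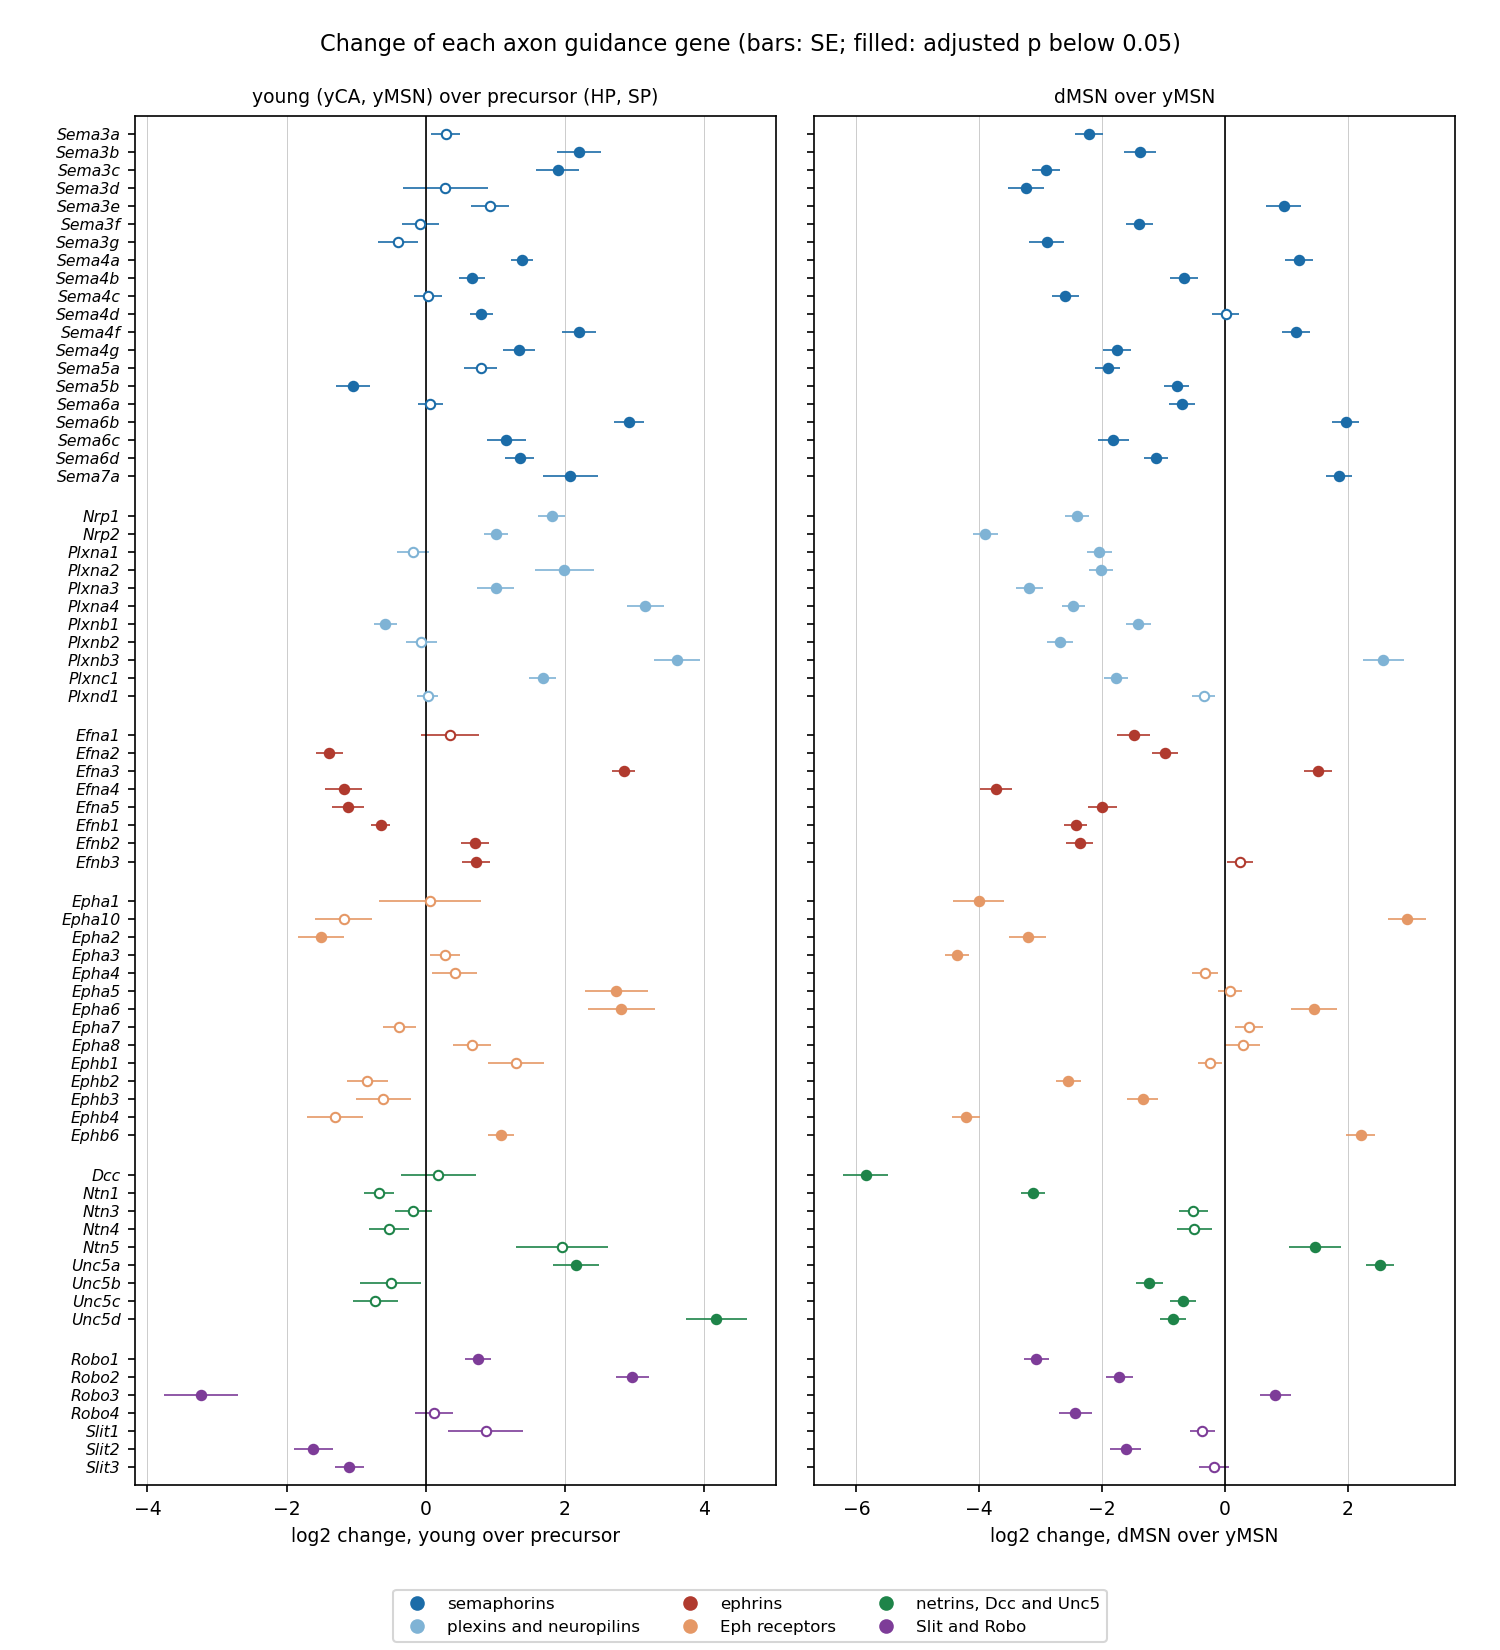
Log2 change of each gene in young tissue over precursors (left panel) and in dMSN over yMSN (right panel), by family, with bars for the SE, filled points past an adjusted p of 0.05 and open points not past it. The panels have their own horizontal scales. In the left panel most filled points of the semaphorins, plexins and neuropilins are above 0, and in the right panel 44 of the 57 filled points are below 0.

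Ephrins, the membrane-bound ligands of Eph receptors, split by gene in young tissue, where 3 of 8 rose and 4 fell. In dMSN 6 fell, 1 rose and Efnb3 did not pass. At each step 87.5% of the ephrins were called, against 35.4% of all genes in young tissue and 67.5% in dMSN. Efna3, a lipid-anchored A-type ephrin, was 3.75 CPM in SP, 3.27 CPM in HP, 28.6 CPM in yMSN, 22.03 CPM in yCA, and 79.3 and 83.8 CPM in the dMSN libraries. It was higher at each stage, and rose by 2.84 in young tissue (SE 0.169, adjusted p = 0.0014) and by 1.51 in dMSN (SE 0.224, adjusted p = 7.2e-05). By contrast the A-type ephrins Efna2, Efna4 and Efna5 fell in young tissue. Efna2 was 82.7 CPM in SP, 59.6 CPM in HP, 26.2 CPM in yMSN, 27.6 CPM in yCA, and 14.1 and 12.5 CPM in the dMSN libraries, and fell by 1.38 in young tissue (SE 0.2003, adjusted p = 0.0069). Efna4 was 21.3 CPM in SP, 30.6 CPM in HP, 12.2 CPM in yMSN, 10.4 CPM in yCA, and 0.8895 and 0.949 CPM in the dMSN libraries. It fell by 1.18 (SE 0.271, adjusted p = 0.025) and, in dMSN, fell by 3.72 (SE 0.263, adjusted p = 1.3e-07). Efna5, which patterns topographic maps, was 68.1 CPM in SP, 53.6 CPM in HP, 36.9 CPM in yMSN, 20.9 CPM in yCA, and 7.81 and 10.7 CPM in the dMSN libraries, and it fell by 1.12 in young tissue (SE 0.232, adjusted p = 0.019) and fell by 1.998 in dMSN (SE 0.231, adjusted p = 8.9e-06). The young libraries of all 3 were below both precursor libraries and the dMSN libraries below both young ones. The fall of Efna4 in young tissue was lost without HP, at -0.81, and when either dMSN library was left out, at -1.18.

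Of the B-type ephrins, which span the membrane, Efnb1 was 131 CPM in SP, 142 CPM in HP, 88.1 CPM in yMSN, 85.9 CPM in yCA, and 16.1 and 16.6 CPM in the dMSN libraries. It fell by 0.65 in young tissue (SE 0.1399, adjusted p = 0.021) and fell by 2.43 in dMSN (SE 0.188, adjusted p = 2.9e-07). Efnb2 was 136 CPM in SP, 137 CPM in HP, 204 CPM in yMSN, 241 CPM in yCA, and 33.6 and 45.5 CPM in the dMSN libraries. Efnb2 was highest in the young libraries, with a rise by 0.70 (SE 0.201, adjusted p = 0.046), and it fell by 2.37 in dMSN (SE 0.216, adjusted p = 1.2e-06). Efnb3, a midline barrier in the spinal cord, was 102 CPM in SP, 85.5 CPM in HP, 142 CPM in yMSN, 169 CPM in yCA, and 185 and 152 CPM in the dMSN libraries. It rose by 0.73 in young tissue (SE 0.201, adjusted p = 0.042), a call lost under RLE scaling at 0.60, without the filter at 0.69, with DESeq2 at 0.60, without HP at 0.47, without yCA at 0.37, and when either dMSN library was left out at 0.73. Both dMSN libraries lay above yMSN and 1 of them below yCA, and it did not pass there (0.25, adjusted p = 0.32).

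Of the Eph receptors, the tyrosine kinases that bind ephrins, 3 of 14 rose in young tissue, 1 fell and 10 did not pass. In dMSN 3 rose, 6 fell and 5 did not pass. The share called was 28.6% of these 14 genes in young tissue and 64.3% in dMSN, against 35.4% and 67.5% of all genes. Epha5 was 21.5 CPM in SP, 12.6 CPM in HP, 76.97 CPM in yMSN, 157 CPM in yCA, and 75.9 and 86.9 CPM in the dMSN libraries. It rose by 2.74 in young tissue (SE 0.454, adjusted p = 0.0099) and did not pass in dMSN (0.080, adjusted p = 0.74). Its young change was 1.74 without yCA and 3.65 without yMSN. Epha6 was 0.554 CPM in SP, 0.373 CPM in HP, 2.42 CPM in yMSN, 4.37 CPM in yCA, and 5.803 and 7.35 CPM in the dMSN libraries. It rose by 2.81 in young tissue (SE 0.479, adjusted p = 0.011) and by 1.44 in dMSN (SE 0.374, adjusted p = 0.0045), and the young change was 2.02 without yCA and 3.55 without yMSN. Ephb6, which lacks kinase activity, was 18 CPM in SP, 19.1 CPM in HP, 33.2 CPM in yMSN, 46.3 CPM in yCA, and 137 and 169.5 CPM in the dMSN libraries. It rose at both steps, by 1.08 in young tissue (SE 0.188, adjusted p = 0.011) and by 2.21 in dMSN (SE 0.235, adjusted p = 4.5e-06). Epha10, another receptor without kinase activity, was 13.02 CPM in SP, 6.12 CPM in HP, 3.36 CPM in yMSN, 4.63 CPM in yCA, and 28.1 and 24.2 CPM in the dMSN libraries. In young tissue Epha10 had a log2 change of -1.18 (adjusted p = 0.079), and in dMSN it rose by 2.96 (SE 0.308, adjusted p = 3.6e-06), to above all earlier libraries.

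Epha3, Ephb4, Epha1 and Epha2 fell to below 5 CPM in dMSN. Epha3 was 78.4 CPM in SP, 79.8 CPM in HP, 72.4 CPM in yMSN, 127 CPM in yCA, and 3.42 and 3.61 CPM in the dMSN libraries, and fell by 4.36 in dMSN (SE 0.201, adjusted p = 4.9e-09). Ephb4, the venous receptor of Efnb2, was 102 CPM in SP, 143 CPM in HP, 70.1 CPM in yMSN, 33.9 CPM in yCA, and 4.37 and 3.14 CPM in the dMSN libraries, and fell by 4.22 (SE 0.2297, adjusted p = 1.7e-08). Epha1, an epithelial receptor, was 4.23 CPM in SP, 6.72 CPM in HP, 10.2 CPM in yMSN, 2.98 CPM in yCA, and 0.856 and 0.397 CPM in the dMSN libraries, and fell by 4.01 (SE 0.4098, adjusted p = 3.1e-06). Without dMSN 1 the Epha1 change was -4.66, with no test. In young tissue none of the 3 passed, with adjusted p of 0.37 for Epha3, 0.056 for Ephb4 and 0.96 for Epha1. Epha2 was 18.9 CPM in SP, 15.2 CPM in HP, 8.79 CPM in yMSN, 4.01 CPM in yCA, and 1.07 and 0.8199 CPM in the dMSN libraries. It fell by 1.51 in young tissue (SE 0.3301, adjusted p = 0.022) and fell by 3.21 in dMSN (SE 0.297, adjusted p = 1.3e-06), and the young call was lost when either dMSN library was left out, at -1.51. Epha1 and Epha2 are epithelial genes elsewhere in the body, and 10 genes of epidermis and oral epithelium had a summed level of 94.1 and 71.4 CPM in the dMSN libraries, against 372 CPM in yMSN; their part was not tested. Epha4, Epha7, Epha8 and Ephb1 passed at neither step, and their levels in dMSN lay within 1 log2 unit of yMSN.

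In the group of netrins, Dcc and Unc5, 2 of 9 genes rose in young tissue and none fell. In dMSN 2 rose, 5 fell and 2 did not pass. So 22.2% of this group were called in young tissue and 77.8% in dMSN, against 35.4% and 67.5% of all genes. Dcc, the receptor through which netrin-1 attracts axons, was 83.96 CPM in SP, 38.05 CPM in HP, 53.8 CPM in yMSN, 76.3 CPM in yCA, and 0.532 and 1.34 CPM in the dMSN libraries. Both dMSN libraries lay far below the 4 others, and Dcc fell by 5.85 (SE 0.365, adjusted p = 5e-08), the largest decrease among the 69 genes. Without dMSN 2 the change was -6.65, with no test. Ntn1, its ligand netrin-1, was 162 CPM in SP, 74.5 CPM in HP, 78.5 CPM in yMSN, 60.2 CPM in yCA, and 9.37 and 8.55 CPM in the dMSN libraries, and fell by 3.13 in dMSN (SE 0.195, adjusted p = 4.9e-08). In young tissue Ntn1 had a log2 change of -0.68 (adjusted p = 0.061) and Dcc one of 0.18 (adjusted p = 0.82). Ntn5 was 0.201 CPM in SP, 0.316 CPM in HP, 1.73 CPM in yMSN, 0.5399 CPM in yCA, and 4.08 and 5.403 CPM in the dMSN libraries. It rose by 1.46 in dMSN (SE 0.425, adjusted p = 0.009), a call that DESeq2 did not make at a log2 change of 1.51.

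Unc5 receptors mediate repulsion by netrins. Unc5d, a marker of migrating upper-layer cortical neurons, was 3.75 CPM in SP, 2.41 CPM in HP, 39.1 CPM in yMSN, 77.3 CPM in yCA, and 21.9 and 21.6 CPM in the dMSN libraries. It had the largest rise of the 69 genes in young tissue, by 4.17 (SE 0.436, adjusted p = 0.0033), and fell by 0.85 in dMSN (SE 0.211, adjusted p = 0.0035). Unc5a was 7.17 CPM in SP, 6.09 CPM in HP, 20.4 CPM in yMSN, 42.7 CPM in yCA, and 116 and 119 CPM in the dMSN libraries. It rose by 2.16 in young tissue (SE 0.331, adjusted p = 0.0079) and by 2.52 in dMSN (SE 0.229, adjusted p = 1.1e-06), and its 3 stages did not overlap. The young change of Unc5d was 3.28 without yCA and 5.002 without yMSN, and that of Unc5a 1.403 without yCA and 2.81 without yMSN. Unc5b, also an endothelial receptor, was 38.2 CPM in SP, 69.2 CPM in HP, 49.7 CPM in yMSN, 26.3 CPM in yCA, and 23.7 and 18.5 CPM in the dMSN libraries. Its young and precursor libraries overlapped, and it fell by 1.24 in dMSN (SE 0.217, adjusted p = 0.00029), a call lost at -0.86 in the model with lineage and stage as terms. The median of the 9 pallial neuron markers, none of them among the 69 genes, was 89.1 CPM for yMSN and 206 CPM for yCA, against 10.8 CPM for SP and 17.03 CPM for HP. Their part in the Unc5d and Unc5a values was not tested.

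Slits are secreted repellents and Robo genes their receptors. In young tissue 2 of 7 rose and 3 fell, and in dMSN 1 rose and 4 fell. At each step 71.4% of the 7 were called, against 35.4% of all genes in young tissue and 67.5% in dMSN. Robo2 was 37.1 CPM in SP, 35.5 CPM in HP, 253 CPM in yMSN, 319 CPM in yCA, and 64.3 and 88.8 CPM in the dMSN libraries. It was highest in both young libraries. It rose by 2.97 in young tissue (SE 0.234, adjusted p = 0.002) and fell by 1.72 in dMSN (SE 0.219, adjusted p = 2e-05). Robo1 was 181 CPM in SP, 154 CPM in HP, 255 CPM in yMSN, 308 CPM in yCA, and 29.03 and 31.8 CPM in the dMSN libraries. Its rise by 0.75 in young tissue (SE 0.186, adjusted p = 0.031) was lost under RLE scaling at 0.62, without the filter at 0.71, and without HP at 0.49, without yCA at 0.39, and when either dMSN library was left out at 0.75. In dMSN, where both libraries lay below all others, it fell by 3.07 (SE 0.195, adjusted p = 5.8e-08). Robo3, the divergent receptor that lets commissural axons cross the midline, was 105 CPM in SP, 29.8 CPM in HP, 5.57 CPM in yMSN, 6.402 CPM in yCA, and 8.65 and 10.9 CPM in the dMSN libraries. It was highest in SP, and fell by 3.23 in young tissue (SE 0.5305, adjusted p = 0.0096), the largest decrease of the 69 genes at that step. The change was -4.34 without yCA and -2.22 without yMSN. In dMSN it rose by 0.81 (SE 0.252, adjusted p = 0.013), a call that limma voom did not make at 0.80 and that the model with lineage and stage as terms did not make at 0.21. Robo4, the endothelial Robo, was 12.1 CPM in SP, 12.98 CPM in HP, 16.4 CPM in yMSN, 11.2 CPM in yCA, and 3.21 and 2.86 CPM in the dMSN libraries, and fell by 2.44 in dMSN (SE 0.266, adjusted p = 5.5e-06), beside the endothelial list values given above.

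Among the ligands Slit2 was 155 CPM in SP, 104 CPM in HP, 41.6 CPM in yMSN, 41.03 CPM in yCA, and 10.4 and 16.7 CPM in the dMSN libraries. It was lower at each stage, as it fell by 1.62 in young tissue (SE 0.284, adjusted p = 0.012) and fell by 1.62 in dMSN (SE 0.252, adjusted p = 0.00011). Slit3 was 37.5 CPM in SP, 27.8 CPM in HP, 17.8 CPM in yMSN, 12.8 CPM in yCA, and 13.8 and 17.6 CPM in the dMSN libraries, and fell by 1.099 in young tissue (SE 0.209, adjusted p = 0.015) with its dMSN libraries beside yMSN (-0.18, adjusted p = 0.52). Slit1 passed at neither step (adjusted p = 0.26 in young tissue and adjusted p = 0.12 in dMSN), at 65.3 CPM in SP, 20.02 CPM in HP, 54.7 CPM in yMSN, 79.3 CPM in yCA, and 44.8 and 39.6 CPM in the dMSN libraries. For Slit1 HP was the lowest library.

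The same yMSN library enters both steps, so the calls at the 2 steps are given side by side without a test of their relation. The genes that rose at both steps were 9, namely Efna3, Epha6, Ephb6, Plxnb3, Sema4a, Sema4f, Sema6b, Sema7a and Unc5a, where 9.85% of 19192 genes did. Another 16 rose in young tissue and fell in dMSN, where 6.52% of all genes did, among them Nrp1, Nrp2, Plxna2, Plxna3, Plxna4, Plxnc1, Robo1 and Robo2. A set of 8 fell at both, where 7.39% of all genes did, among them Efna4, Efna5, Epha2 and Slit2. Robo3 alone fell and then rose, where 2.33% of all genes did.

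The striatal course was also read from SP to yMSN to dMSN alone, as steps of at least 2-fold with no test. Of the 69 genes 13 went up and then down, or 18.8%, against 6.39% of 13829 genes. Another 21 were flat and then down, or 30.4%, against 14.6%. A set of 9 went up at both steps, or 13%, against 9.08%, and 4 went down at both, or 5.8%, against 5.05%. The 9 hold Ntn5 where the genes called higher at both steps hold Ephb6. Flat at both steps were 12, or 17.4%, against 37.6%, and only Ephb6 was flat and then up, 1.45% against 15.9%. Epha10 was the 1 gene that went down and then up, or 1.45%, against 0.846%. A further 3 went up and stayed, or 4.35% against 7.22%, and 5 went down and stayed, or 7.25% against 3.33%.

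**Figure D4:**
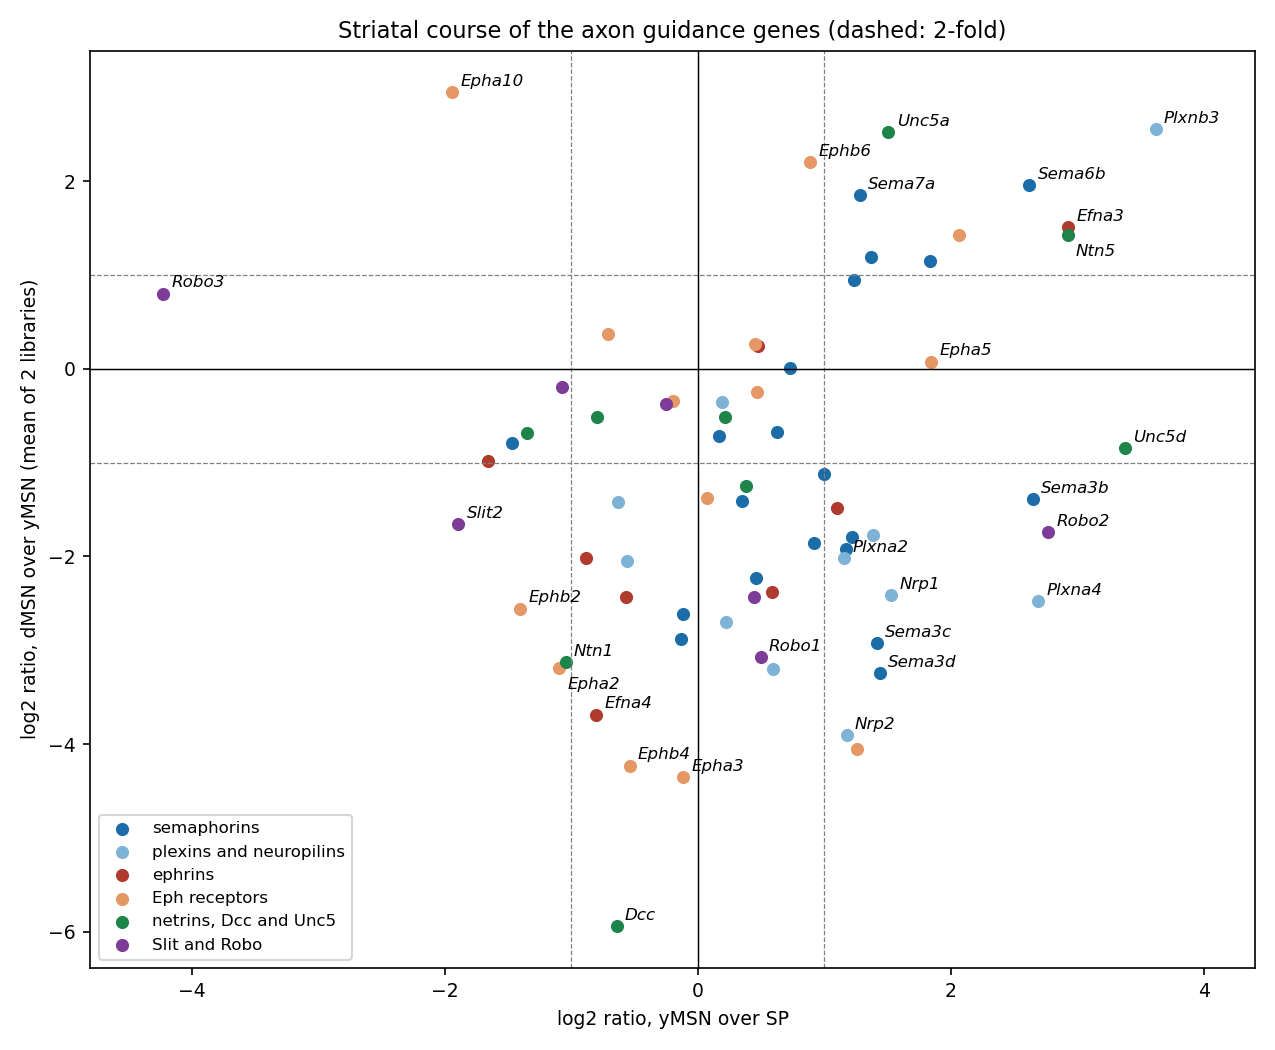
Striatal course of the 69 genes, with the log2 ratio of yMSN over SP on the horizontal axis and of dMSN (mean of 2 libraries) over yMSN on the vertical axis, 1 point a gene coloured by family, and dashed lines at 2-fold. The lower right holds genes that went up and then down, such as Plxna4, Robo2, Nrp1 and Sema3c, and the upper right those that went up at both steps. Both axes use yMSN, so the points are not independent of each other across the axes.

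The lineages were compared over both stages that have both. No gene of the 69 passed in striatal against hippocampal tissue, where 0% of 19192 genes passed, although 826 of those genes and 1 of the 69 reached 0.05 before adjustment. With DESeq2 60 genes passed but 0 of the 69, and with limma voom 0 genes passed. In the model with 1 mean per cell group 319 genes were higher and 37 lower in striatal tissue, and 1 of the 69, Ntn1, passed. The 1 gene before adjustment was also Ntn1 (log2 change 0.75, SE 0.215, unadjusted p = 0.016, adjusted p = 1). Of the 2 largest changes per family, none of which passed (adjusted p = 1 for each), Epha4 had -0.57, Epha2 0.71, Slit1 0.58, Robo3 0.84, Efna1 0.53 and Efna5 0.58 on the log2 scale. Ntn5 had 0.73, Nrp1 -0.38, Plxnb3 0.54, Sema3g 0.502 and Sema3b 0.62. The sign of Robo3, Slit1, Efna1, Epha4 and Ntn5 depended on which library was left out.

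Between the precursor libraries, without replicates, 6 genes were at least 2-fold higher in SP than in HP and 0 lower, of 63 that reached 5 CPM in one of them, where 2.06% of 11469 genes were higher and 0.898% lower. Robo3 had 105 CPM in SP, against 29.8 CPM in HP (log2 ratio 1.81, 95% interval 1.72 to 1.91). Slit1 had 65.3 CPM in SP, against 20.02 CPM in HP (log2 ratio 1.71, 95% interval 1.59 to 1.83). Dcc had 83.96 CPM in SP, against 38.05 CPM in HP (log2 ratio 1.14, 95% interval 1.05 to 1.23). Ntn1 had 162 CPM in SP, against 74.5 CPM in HP (log2 ratio 1.12, 95% interval 1.06 to 1.19). These 4 genes are known from the ventral midline or from commissural neurons. Sema7a, at 17.8 CPM in SP, against 8.33 CPM in HP (log2 ratio 1.095, 95% interval 0.899 to 1.3), and Epha10, at 13.02 CPM in SP, against 6.12 CPM in HP (log2 ratio 1.09, 95% interval 0.86 to 1.33), were the others. The intervals cover counting error only. A list of 13 midbrain, hindbrain and spinal cord genes had a median of 8.76 CPM and a summed level of 199 CPM in SP, against 1.01 CPM and 43.9 CPM in HP, with 0 of them at 0 in SP and 3 at 0 in HP. Its part in these ratios was not tested.

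Between the young libraries 6 genes were at least 2-fold higher in yMSN than in yCA and 3 lower, of 65, where 8.61% of 12815 genes were higher and 2.1% lower. Epha1 had 10.2 CPM in yMSN, against 2.98 CPM in yCA (log2 ratio 1.76, 95% interval 1.47 to 2.08). Sema3d had 21.9 CPM in yMSN, against 7.94 CPM in yCA (log2 ratio 1.46, 95% interval 1.27 to 1.65). Efna1 had 15.7 CPM in yMSN, against 6.43 CPM in yCA (log2 ratio 1.28, 95% interval 1.08 to 1.504). Epha2, Sema3b and Ephb4 were the other 3. Epha1 and Epha2 are known from epithelium, and Efna1 and Ephb4 from vessels. For the 10 genes of epidermis and oral epithelium the median was 20.5 CPM and the sum 372 CPM in yMSN, against 22.7 CPM and 268 CPM in yCA. For the endothelial and mural list the median was 41.7 CPM and the sum 674 CPM in yMSN, against 38.8 CPM and 505 CPM in yCA. A list of 8 olfactory epithelium genes had a median of 14.6 CPM and a sum of 169.5 CPM in yMSN, against 0.270 CPM and 23.0 CPM in yCA. Meningeal and fibroblast markers, 10 genes with none at 0, had a median of 139 CPM and a sum of 13722 CPM in yMSN, against 44.6 CPM and 1904 CPM in yCA. The part of these lists in the ratios was not tested. On the other side Epha4, a receptor of both ephrin classes, had 106 CPM in yMSN, against 239.6 CPM in yCA (log2 ratio -1.18, 95% interval -1.23 to -1.13). Unc5a had 20.4 CPM in yMSN, against 42.7 CPM in yCA (log2 ratio -1.06, 95% interval -1.18 to -0.95). Epha5 was the remaining gene, at 76.97 CPM in yMSN and 157 CPM in yCA. Plxna2, which did not reach 2-fold, had 283 CPM in yMSN, against 539 CPM in yCA (log2 ratio -0.93, 95% interval -0.96 to -0.897).

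**Figure D5:**
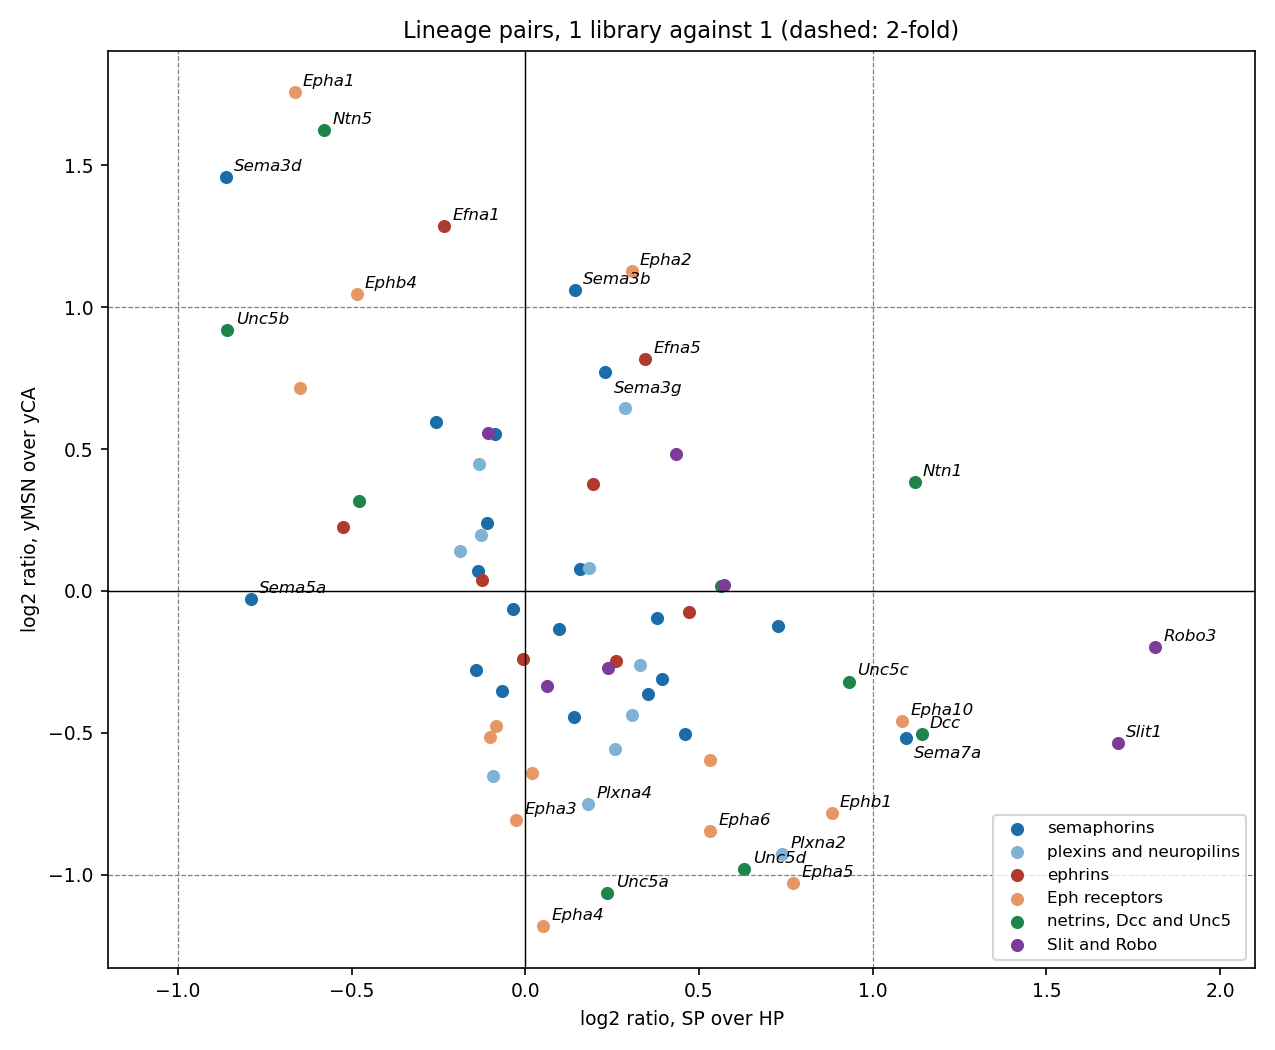
Lineage pairs, with the log2 ratio of SP over HP on the horizontal axis and of yMSN over yCA on the vertical axis, 1 point a gene coloured by family and dashed lines at 2-fold. Robo3, Slit1, Dcc, Ntn1, Sema7a and Epha10 lie beyond 2-fold to the right, and none of them lies beyond 2-fold on the vertical axis. Each ratio rests on 1 library a group.

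The stage step was also read within each lineage. From precursor to young, 25 genes were at least 2-fold higher in yCA than in HP and 11 lower, of 66, where 20.8% of 12472 genes were higher and 14.1% lower. In the striatal lineage 22 were at least 2-fold higher in yMSN than in SP and 10 lower, of 66, where 20.8% of 12931 genes were higher and 9.55% lower. Plxna4 had 305 CPM in yCA, against 24.8 CPM in HP (log2 ratio 3.62, 95% interval 3.52 to 3.72). In the striatal lineage Plxna4 had 181 CPM in yMSN, against 28.05 CPM in SP (log2 ratio 2.69, 95% interval 2.598 to 2.78). Both young libraries were thus above their own precursor library, and so it was for Unc5d. Unc5d had 77.3 CPM in yCA, against 2.41 CPM in HP (log2 ratio 4.98, 95% interval 4.69 to 5.33). Its striatal pair was 39.1 CPM in yMSN, against 3.75 CPM in SP (log2 ratio 3.37, 95% interval 3.14 to 3.63). Robo3, the main gene in the other direction, had 6.402 CPM in yCA, against 29.8 CPM in HP (log2 ratio -2.21, 95% interval -2.42 to -2.02). In the striatal lineage Robo3 had 5.57 CPM in yMSN, against 105 CPM in SP (log2 ratio -4.23, 95% interval -4.43 to -4.05). Robo3 was lower in the young library of both lineages. Ephb1 reached 2-fold in the hippocampal pair, at 119 CPM in yCA, against 27.1 CPM in HP (log2 ratio 2.13, 95% interval 2.03 to 2.24), and had 69.02 CPM in yMSN, against 49.9 CPM in SP (log2 ratio 0.47, 95% interval 0.39 to 0.55) in the striatal pair. In 15 of the 69 genes the pairs went opposite ways with counting intervals clear of 0, where 7.44% of 19192 genes did. The 19192 include many genes below 5 CPM, with wider intervals, while 66 of the 69 reached 5 CPM in each pair. The 2 shares are thus not like for like.

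A list of 65 other axon guidance genes, such as intracellular effectors and adhesion partners, was set beside the 69, and 64 were in the files. Of these 27 rose in young tissue and 8 fell, and the median log2 change was 0.40. That is 54.7% called, against 35.4% of all genes. Dscaml1, an adhesion molecule, rose by 5.36 (SE 0.214, adjusted p = 0.001), Cntn4 by 5.32 (SE 0.537, adjusted p = 0.003) and Chl1 by 4.72 (SE 0.859, adjusted p = 0.013). Shh, which guides commissural axons besides its patterning role, fell by 4.02 (SE 0.4199, adjusted p = 0.0033). Fzd3 fell by 1.36 (SE 0.323, adjusted p = 0.027), and Flrt3, a ligand of Unc5 receptors, fell by 1.06 (SE 0.202, adjusted p = 0.014). In dMSN 13 were higher and 36 lower, and the median was -0.91. Here 76.6% were called, against 67.5% of all genes. Ngef, an exchange factor that acts below Epha4, was 4.23 CPM in SP, 3.73 CPM in HP, 23.8 CPM in yMSN, 24.4 CPM in yCA, and 971 and 1086 CPM in the dMSN libraries, and rose by 5.43 in dMSN (SE 0.2899, adjusted p = 1.4e-08). Chn1, a Rac GTPase-activating protein also known to act below Epha4, rose by 4.24 (SE 0.293, adjusted p = 1.2e-07). Dpysl3, a collapsin response mediator that acts in semaphorin signalling, was 566 CPM in SP, 284 CPM in HP, 1582 CPM in yMSN, 2409 CPM in yCA, and 43.5 and 36.9 CPM in the dMSN libraries, and fell by 5.298 (SE 0.2398, adjusted p = 4.4e-09). Dpysl5 of the same family fell by 4.18 (SE 0.22995, adjusted p = 1.8e-08), and the chemokine receptor Cxcr4 fell by 4.04 (SE 0.2201, adjusted p = 1.7e-08).

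These tests rest on few libraries. In young against precursor the lineages stand in for replicates, with 2 residual degrees of freedom. The dMSN libraries enter that comparison through the filter, the scaling and the spread alone. Without dMSN 1, 20 of the 69 rose and 5 fell, where 2387 and 1203 of 19082 genes did. Without dMSN 2 the counts were again 20 and 5, where 2421 and 1226 of 19075 genes rose and fell. Without yCA, which leaves 1 young library, the median log2 change was 0.36 for the 69 genes and 0.04 for all genes. In dMSN against yMSN the spread came from the dMSN pair alone, with 1 residual degree of freedom, and yMSN was assumed to vary like it. RLE scaling moved the median of all genes in young against precursor to -0.02. It left 23 of the 69 higher and 12 lower, where 3727 and 3382 of 19192 genes were. DESeq2 called 3970 genes higher and 3790 lower there, against 4169 and 2629 with edgeR. Upper quartile scaling moved the median in dMSN against yMSN to -0.27. No called gene of the 69 changed sign under any of these.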

How the data were processed

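The authors deposited 1 table of raw read counts for each library, with 34620 gene symbols. The 5 HTSeq summary lines were left out. Per the labels' protocols, libraries were made with the TruSeq RNA kit from 1 ug of total RNA. The submitters' processing notes name HTSeq, TopHat, TopHat2 2.0.2, Bowtie 1.0.0, edgeR, Bismark and methylKit, with mm9 and NCBIM37 as builds, and give no roles. The strand setting is not given in the sources used here, so reads of overlapping or antisense genes cannot be told apart. Reads in no gene were 5.34% to 9.81%, ambiguous reads 1.38% to 2.01% and reads aligned to several places 17.3% to 27.3%.

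Counts were scaled by TMM, filtered with filterByExpr and tested with the quasi-likelihood F test of edgeR 4.0.16 in R 4.3.3 over 19192 genes (Benjamini-Hochberg, 0.05). The SE is the size of the log2 change over the square root of F. The stage and lineage comparisons used lineage and stage as terms, and dMSN against yMSN used 1 mean per cell group. Pairs of single libraries have no test: ratios use a prior count of 2, and exact 95% intervals cover counting error only. P-values measure the spread between these libraries. In the stage and lineage comparisons that spread holds the difference between the lineages in the stage step and the difference within the dMSN pair. In dMSN against yMSN it comes from the dMSN pair alone. The difference within that pair may be technical.

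Per comparison up to 5 genes per family are given in full, those with the largest change among genes that passed with a mean of at least 1 CPM, or the 2 largest where none passed. For pairs up to 3 per family with at least 5 CPM were eligible, and for the list of other guidance genes the 3 largest each way, of which 1 is not reported here. Other genes of the 69 are named by level, count or call, and those chosen after their values were seen include Sema4a, Epha10 beside Ephb6, and Ephb1 in the striatal pair. The 69 genes and all lists were chosen with earlier results of these data known. Alternatives were RLE and upper quartile scaling, no filter, a filter of at least 1 CPM in 2 libraries, DESeq2 1.42.0, limma 3.58.1 (voom), the other model and each library left out. The steps were tested on simulated data.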

Additional observations from a re-analysis of the deposited data

Results flagged for a closer look

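For 15 of the 69 genes the single libraries moved one way from HP to yCA and the other way from SP to yMSN, with counting intervals that leave out 0 in both pairs, where 7.44% of 19192 genes did. That share covers many genes with lower counts and so wider intervals, and is not like for like. At these depths the intervals leave out 0 for ratios as small as those of Sema4c, 0.17 in the hippocampal pair and -0.12 in the striatal pair. The difference was not tested for any of them, since each value rests on 1 library. Values are the log2 ratio of yCA over HP minus the log2 ratio of yMSN over SP.

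Among the Slit, Robo and netrin genes, Slit1 differed by 2.24, with 1.99 in the hippocampal pair and -0.26 in the striatal pair. Dcc differed by 1.65, with 1.00 and -0.64 in the same order. For both genes HP had the lowest of the 4 values. Unc5b differed by -1.78, and Ntn3 by -0.80, both higher in yMSN than in SP and lower in yCA than in HP. Robo4 differed by -0.66.

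Among the Eph receptors and ephrins, Epha1 differed by -2.42, with -1.16 in the hippocampal pair and 1.26 in the striatal pair. Efna1 differed by -1.52, also higher only in the striatal pair. Epha4 differed by 1.23 and Epha3 by 0.78, both higher in yCA than in HP and lower in yMSN than in SP.

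Among the semaphorins Sema3d differed by -2.32, with -0.88 in the hippocampal pair and 1.44 in the striatal pair, and Sema3f differed by -0.85. Sema4c differed by 0.28. Of the plexins Plxna1 differed by 0.74, Plxnb2 by -0.58 and Plxnd1 by -0.33. Skeletal muscle markers were higher in yCA than in yMSN and meningeal markers higher in yMSN than in yCA, as given in the report, and their part in these differences was not tested.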

How the results depend on the processing

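With 1 mean per cell group, young against precursor gave 17 of the 69 genes lower, where 3940 of 19192 genes were. Striatal against hippocampal gave 1 higher and 1 past the threshold (Ntn1), where 319 of all genes were higher and 37 lower. Leaving out 1 library at a time, young against precursor gave 20 to 31 higher, 5 to 17 lower and 25 to 43 past the threshold, and striatal against hippocampal gave 0 to 4 higher, 0 to 5 lower and 0 to 9 past it. The last 3 maxima came without SP, where the fit holds yMSN against yCA alone. In the same lineage comparison the log2 change ranged from -0.20 to 1.82 for Robo3, -0.54 to 1.71 for Slit1, -0.24 to 1.29 for Efna1, -1.18 to 0.053 for Epha4 and -0.65 to 1.67 for Ntn5, and these changed sign. Of 364 values of the genes given in full in young against precursor 339 kept their call and 25, of 6 genes, lost it, and of 360 in dMSN against yMSN 341 were the same, 4 lost the call and 15 moved by more than the dMSN spread when 1 dMSN library was left out. None of these changed sign. Leaving out both dMSN libraries, added after seeing the data, gave 22 higher and 7 lower in young against precursor, where 2756 and 1665 of 18372 genes were. In dMSN against yMSN, leaving out a dMSN library left no residual degrees of freedom and so a value with no test, and leaving out yMSN gave no value. No paired analysis was possible because the groups compared share fewer than 2 replicate numbers. Depth limits only genes near 1 CPM, such as Plxnb3, Epha6 and Ntn5 in the precursor libraries.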

Other observations

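Ligands and receptors that are known to bind each other were set side by side as values, chosen after the values were seen and without a test. Sema7a rose in dMSN while its receptor Plxnc1 fell, so that the receptor was 26.3 and 28.1 CPM in dMSN, against 92.7 CPM in yMSN, and the ligand 149 and 164 CPM in dMSN, against 43.3 CPM in yMSN. Sema6b rose while Plxna2 and Plxna4 fell. For Sema3e and its receptor Plxnd1, the ligand was 19.5 and 24.6 CPM in dMSN, against 11.4 CPM in yMSN, and the receptor 98.8 and 96.7 CPM in dMSN, against 125 CPM in yMSN, and the receptor did not pass (adjusted p = 0.12). Ntn1 and Dcc fell together, as did Sema3a and Nrp1, Sema3f and Nrp2, Slit2 and Robo1, and Efnb2 and Ephb4. At that step 44 of the 69 genes fell, where 35.4% of all genes did. Unc5a, of the Unc5 receptors of netrins, rose by 2.52 on the log2 scale while Ntn1 fell. Sema4d and its receptor Plxnb1 differed, with the ligand not past the threshold in dMSN (adjusted p = 0.98) and the receptor lower by 1.41 on the log2 scale (adjusted p = 5.8e-05).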
